A study of Mus musculus with 20 samples.

Results

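In Lin- bone marrow cells, 458 autosomal regions held an H3K27ac peak in the lists of the Tet2 Knockout and the p300 Tet2 Knockout and in neither the WT nor the p300 Knockout list. They were selected on H3K27ac itself: the 4 H3K27ac peak lists were merged wherever peaks shared at least 1 bp, and a merged region was kept by the lists that had a peak in it. These gained regions made up 1.33% of the 34536 autosomal merged regions, a background that the selection fixes and from which nothing is read. Another 11 regions with the same presence lay on the sex chromosomes or unplaced sequence and were left out. Gained here means present in a list and absent from another, not an amount of acetylation.

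The study asked how loss of the acetyltransferase p300, encoded by Ep300, alters cells that lack the DNA demethylase TET2. Lin- cells are bone marrow cells from which a depletion kit has removed most mature cells, and the number of mice per library was not given. All mice carried floxed Ep300 alleles and had a C57BL/6 background, and they received repeated poly(I:C) injections as young adults several weeks old. The methods place experiments some weeks after the injections or at stated times, with no time of its own for ChIP-Seq. WT mice were Ep300 fl/fl without Cre, and p300 Knockout mice carried Mx1-Cre, an interferon-inducible Cre that also acts outside blood cells, so that Ep300 was deleted after the injections (Ep300 Δ/Δ). Tet2 Knockout mice were Ep300 fl/fl with germline Tet2-/- and no Cre, and p300 Tet2 Knockout mice were Ep300 Δ/Δ with Tet2-/-. ChIP-Seq for H3K27ac, H3K4me1, and H3K4me3 gave 12 peak lists, 1 library per genotype and mark, so that no difference between genotypes had a replicate check and none was tested. Intervals below are exact Clopper-Pearson 95% intervals and cover the counting of regions only. Where 1 set of regions is counted in several genotypes, overlap of the intervals tests no difference between genotypes. Read depth was not given in the lists. Whether the 3 marks of a genotype came from the same chromatin was not stated, so that loss of Tet2 and any other difference between these cell preparations cannot be told apart.

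H3K27ac is laid down at active promoters and enhancers by p300 and its relative CBP. H3K4me1 marks enhancers and the flanks of promoters, whether or not they are active, and H3K4me3 marks the starts of transcribed or poised genes. TET2 oxidizes methylated cytosine in CpG dinucleotides, a step toward demethylation, and in blood cells it acts at many enhancers. The labeled cell type was checked at 9 progenitor genes: a promoter peak of H3K27ac was listed for all 9 in WT and in p300 Knockout, and for 7 in each Tet2-null list, with Cebpa missing from both, Cd34 from Tet2 Knockout, and Gata2 from p300 Tet2 Knockout. Among 15 markers of T, B, and NK cells, granulocytes, erythroid cells, and stroma, 5 had a promoter peak in WT and 3 in each other genotype, with Cd3d in all 4 lists. The part of such cells in the results was not tested. Markers that define mature lymphoid and granulocytic cells (Cd3e, Cd8a, Ms4a1, Cd79a, Ly6g, Ltf, Ncr1) had none in any list.

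The 7 sequences here show what the set contains, each as the forward strand of GRCm38 (mm10, RefSeq assembly) from 100 bases before to 100 bases after the summit of the Tet2 Knockout H3K27ac peak. The capitals mark CpG dinucleotides, the sites at which TET2 acts. The Car2 and Gm38061 regions are the 2 members at which H3K4me1 and H3K4me3 were also listed in the Tet2-null genotypes only. Desi2, E130116L18Rik, Trim30b, and Akr1e1 are the 4 highest-ranked protein-coding promoters that had no WT or p300 Knockout acetylation. 4930481A15Rik is the region with the highest rank of all.
Car2, chr3:14912241-14912441: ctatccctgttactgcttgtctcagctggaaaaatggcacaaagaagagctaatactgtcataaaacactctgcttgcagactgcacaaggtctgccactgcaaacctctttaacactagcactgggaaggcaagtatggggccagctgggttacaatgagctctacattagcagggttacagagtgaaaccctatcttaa
Gm38061, chr11:31732812-31733012: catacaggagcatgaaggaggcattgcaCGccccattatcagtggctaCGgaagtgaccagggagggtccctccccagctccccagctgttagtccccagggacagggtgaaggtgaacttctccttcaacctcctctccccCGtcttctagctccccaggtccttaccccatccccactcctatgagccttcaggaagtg
Desi2, chr1:178187160-178187360: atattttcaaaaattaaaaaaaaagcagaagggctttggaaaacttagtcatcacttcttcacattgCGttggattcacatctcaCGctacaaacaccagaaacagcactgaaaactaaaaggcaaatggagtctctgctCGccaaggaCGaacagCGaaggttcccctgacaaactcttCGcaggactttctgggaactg
E130116L18Rik, chr5:25223101-25223301: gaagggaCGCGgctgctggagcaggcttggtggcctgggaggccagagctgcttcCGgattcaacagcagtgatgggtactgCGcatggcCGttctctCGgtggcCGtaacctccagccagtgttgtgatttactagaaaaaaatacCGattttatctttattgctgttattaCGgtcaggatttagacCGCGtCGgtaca
Trim30b, chr7:104370032-104370232: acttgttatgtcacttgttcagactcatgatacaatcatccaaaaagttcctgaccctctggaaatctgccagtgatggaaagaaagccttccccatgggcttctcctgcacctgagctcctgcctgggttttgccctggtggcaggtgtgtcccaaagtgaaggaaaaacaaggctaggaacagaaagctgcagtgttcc
Akr1e1, chr13:4608964-4609164: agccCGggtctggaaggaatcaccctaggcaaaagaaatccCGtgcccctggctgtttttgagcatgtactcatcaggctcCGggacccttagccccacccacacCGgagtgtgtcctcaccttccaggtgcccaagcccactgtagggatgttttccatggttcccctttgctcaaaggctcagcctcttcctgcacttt
4930481A15Rik, chr19:5406377-5406577: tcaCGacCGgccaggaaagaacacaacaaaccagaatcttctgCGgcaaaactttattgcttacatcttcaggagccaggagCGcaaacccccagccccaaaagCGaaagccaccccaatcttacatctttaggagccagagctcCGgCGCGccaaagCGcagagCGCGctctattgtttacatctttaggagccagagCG

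The Car2 and Trim30b windows held no CpG, Gm38061 held 3, Akr1e1 4, Desi2 6, and E130116L18Rik and 4930481A15Rik 12 each. The whole 4930481A15Rik window was soft-masked as repeat, compared with 0% to 20.9% of the other 6 windows. Of the 16 short motifs searched on both strands, only CAGCTG, the E-box form bound by TAL1, occurred in these windows, in those of Car2 and Gm38061.

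The 458 gained regions stood among 15 patterns of presence, of which 4 held fewer regions. The smallest, p300 Knockout with p300 Tet2 Knockout, held 251, and WT with p300 Tet2 Knockout held 456. A peak in all 4 lists was the most frequent pattern, with 12194 regions, and 3290 regions had a peak in Tet2 Knockout only. The reverse pattern, WT and p300 Knockout with no peak in either Tet2-null list, held 1490 regions, or 4.31% of all. Of the 13865 regions shared by the Tet2-null lists, 3.30% (3.01% to 3.61%) were absent from both other lists, and of the 16444 regions shared by WT and p300 Knockout, 9.06% (8.63% to 9.51%) were absent from both Tet2-null lists. The lists differed in length, with 29659 H3K27ac peaks in WT, 22727 in p300 Knockout, 24539 in Tet2 Knockout, and 18327 in p300 Tet2 Knockout. When each list was cut to its 18327 peaks of highest -log10 q, there were 680 gained and 722 reverse regions. With all lists held to a -log10 q of 5 or more there were 511 gained and 424 reverse regions. Which of these patterns had more regions therefore depended on how the lists were cut. Only 238 and 191 of the 458 regions, respectively, were met again under these cuts.

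**Figure D1:**
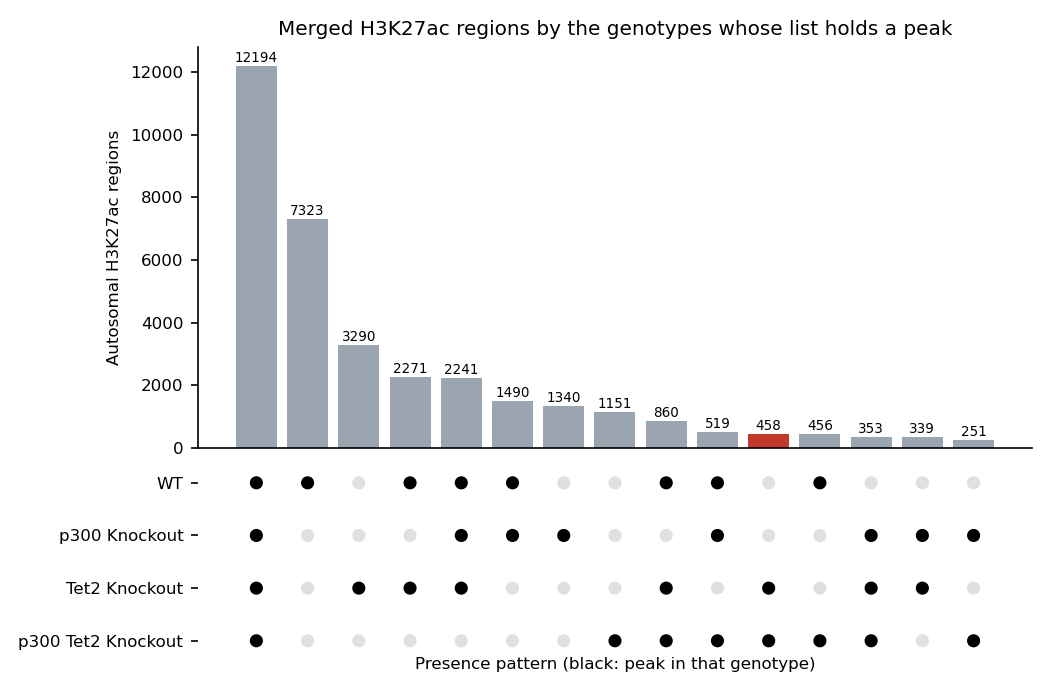
Number of autosomal merged H3K27ac regions (vertical axis) for each of the 15 patterns of presence in the 4 lists, with black dots below for the genotypes whose list holds a peak. The gained regions (red) number 458, compared with 12194 regions present in all 4 lists and 1490 present in WT and p300 Knockout only.

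Most gained regions were weak peaks in their own lists, a description since these values chose the members. Within the Tet2 Knockout list, ranked by the authors' fold enrichment over H3, the members' best peaks lay at a median percentile of 30.6, and within the p300 Tet2 Knockout list at 25.6. The peaks of 20 members lay above the 50th percentile in both lists, and 1 region, 4930481A15Rik, lay above the 75th. In 451 of 458 regions each Tet2-null list contributed 1 peak. In all 458 the peaks of both lists shared at least 1 bp, which the merging fixes in advance. The median width was 462 bp, compared with 452 bp for the reverse regions, 286 bp for regions in Tet2 Knockout only, and 507 bp over all autosomal regions. A merged region widens with the number of lists that enter it, and of these only the reverse regions also come from 2 lists.

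A large share of gained regions lay beside acetylation that was listed in the other genotypes. The gap to the nearest WT or p300 Knockout H3K27ac peak was under 500 bp for 128 regions and under 2000 bp for 175, and it was 2000 bp or more for 283. The median gap was 1610 bp at promoters and 12340 bp at distal regions. Of the 175 regions with a gap under 2000 bp, 135 were at promoters. Gaps reached 50000 bp or more at 76 regions, the farthest at 1776818 bp in an intron of Csmd3 nearest to the small nuclear RNA gene Gm25007. Just inside the rule, a region 1083 bp upstream of a start of Bcl11a, a repressor of fetal globin genes, lay 6 bp from a WT peak. Just outside it, a region nearest to Eri1 was left out because peaks shared 5 bp. Of the 13407 regions of both Tet2-null lists that had a WT or p300 Knockout peak, this was 1 of 4 with under 100 bp shared.

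**Figure D2:**
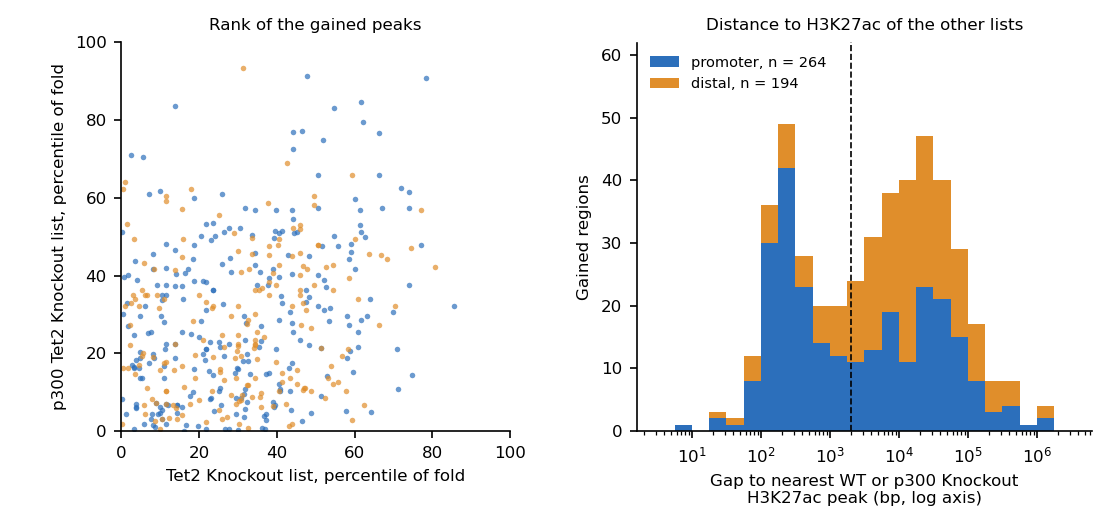
Left, percentile of each gained region's best H3K27ac peak by fold enrichment within the Tet2 Knockout list (horizontal axis) and the p300 Tet2 Knockout list (vertical axis), 1 point per region. Right, number of gained regions by gap in bp (log axis) to the nearest WT or p300 Knockout H3K27ac peak, with promoter and distal regions stacked and a dashed line at 2000 bp. Promoter regions (blue, n = 264) pile up at short gaps and distal regions (orange, n = 194) at longer ones.

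The place of the gained regions in the genome was close to that of acetylated regions as a whole. Promoters, 3000 bp on either side of any annotated transcript start, held 264 of 458 regions, or 57.6% (53.0% to 62.2%), beside 59.3% of all autosomal regions. The other 194, called distal here, comprised 107 in introns, 14 in exons outside promoters, and 73 between genes. Shares in introns and between genes were 23.4% and 15.9%, compared with 22.7% and 14.8% over all regions. The share at promoters was higher than the 39.7% of regions found in Tet2 Knockout only and lower than the 83.5% of regions in all 4 lists. Distal members lay at a median of 12458 bp from the nearest start, with 89 upstream and 105 downstream of it. With the regions under a 2000 bp gap left out, 45.6% (39.7% to 51.6%) were at promoters.

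Every autosome held gained regions, from 13 on chromosomes 12 and 18 to 40 on chromosome 2. As a share of a chromosome's acetylated regions they ran from 0.817% (0.468% to 1.32%) on chromosome 9 to 1.88% (1.21% to 2.79%) on chromosome 14, and these intervals overlapped. Within 10 Mb of Tet2, where DNA linked to the targeted allele could differ between genotypes, 1 of 196 acetylated regions was gained, or 0.510% (0.0129% to 2.81%), beside 1.33% over all autosomes, and 6 showed the reverse pattern. Within 10 Mb of Ep300, 6 of 593 were gained, or 1.01% (0.372% to 2.19%), and 23 showed the reverse pattern. Gained regions were mostly scattered, with a median distance of 2845590 bp between neighbors and 10 pairs of neighbors within 20000 bp. The closest pair, 77 bp apart, lay at the promoter of Nr1d1, which encodes the circadian repressor REV-ERBα. Another pair, 517 bp apart, lay at the promoter of Ikzf2, which encodes the Ikaros family factor Helios.

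The promoter members fell into those beside an acetylated start and those at a gene with none. For 163 of 264, WT or p300 Knockout had an H3K27ac peak elsewhere in the promoters of the nearest gene. For 101 there was none in either list, and 56 of these had a protein-coding gene as the nearest. Of these 56, 50 had H3K4me3 in all 4 genotypes, a state found at 76.4% of all autosomal promoter regions. H3K4me1 was listed in all 4 genotypes at 20 of the 56 and in none at 16, beside 47.6% and 22.6% of all promoter regions. These numbers count genes whose presence in the Tet2-null lists was the rule, and hold no test.

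Several of these promoters were among the 12 regions of highest rank. At Desi2, which encodes a desumoylating enzyme, a 909 bp region 18 bp downstream of the start had a fold enrichment of 8.98 in Tet2 Knockout and 9.35 in p300 Tet2 Knockout, and the nearest WT peak was 130014 bp away. It had H3K4me3 in all 4 genotypes and H3K4me1 in none. Akr1e1, an aldo-keto reductase gene, had folds of 8.10 and 15.4, the same states of the other marks, and no peak of the other lists within 690426 bp. E130116L18Rik also had H3K4me3 in all 4 genotypes and no H3K4me1, with folds of 10.3 and 8.66. Trim30b, of the TRIM30 family of immune genes, differed from these: H3K4me1 was listed in all 4 genotypes and H3K4me3 in all but WT, with folds of 8.22 and 13. Folds were read within a list and were not compared between genotypes.

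The other high ranks were mostly regions beside listed acetylation. Hmgcs1 and Dhcr7, which act early and at the last step of cholesterol synthesis, had gained regions 351 bp upstream and 194 bp downstream of a start, and the nearest peaks of the other lists lay 205 bp and 126 bp away. The same held for Pdia4, a protein disulfide isomerase of the endoplasmic reticulum, with a gap of 199 bp, for Gle1, an mRNA export factor, with 128 bp, and for the noncoding 2810414N06Rik, with 243 bp. All 5 had H3K4me3 in all 4 genotypes. The region of highest rank, upstream of the antisense gene 4930481A15Rik, lay 146 bp from a WT peak and 15552 bp from the nearest p300 Knockout peak. It had H3K4me1 in both Tet2-null lists only and H3K4me3 in all lists but p300 Knockout. Gm22265, a small nuclear RNA gene within Hhat, had neither mark in any genotype, and Gm27043, a pseudogene in an intron of Sugct, had H3K4me1 in all 4 genotypes and no H3K4me3. The 12th place was shared by 2810414N06Rik and Rbbp8 at a lower percentile of 57.

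As examples of newly listed promoters, 5 of the 56 were chosen after their values were seen, and they stand for no theme. Rgs18, a regulator of G protein signaling known from platelets, had folds of 11.8 and 6.75, and no other H3K27ac peak lay within 441378 bp in the WT and p300 Knockout lists. Gng11, a G protein subunit, had folds of 6.78 and 11.5. Nr3c2, the mineralocorticoid receptor, had 7.72 and 6.56, and Itga6, an integrin of stem and progenitor cells, 5.46 and 5.94. Il7, the cytokine of early lymphocytes, had 3.88 and 6.60, with the nearest other peak 1309433 bp away. All 5 had H3K4me3 in all 4 genotypes. None of these values is an expression level.

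H3K4me1 and H3K4me3 were not used to choose the regions, and over the 458 regions each was listed at most of them in every genotype. Among the 21 regions left with only the upper part of both Tet2-null lists by fold, H3K4me1 was at 33.3% in WT and 38.1% in Tet2 Knockout. H3K4me1 was listed in WT at 314 of 458 regions, or 68.6% (64.1% to 72.8%), in p300 Knockout at 68.1% (63.6% to 72.4%), in Tet2 Knockout at 74.0% (69.7% to 78.0%), and in p300 Tet2 Knockout at 77.7% (73.6% to 81.5%). H3K4me3 was listed at 62.2% (57.6% to 66.7%), 61.4% (56.7% to 65.8%), 68.3% (63.9% to 72.6%), and 70.3% (65.9% to 74.5%) in the same order. Over all autosomal regions H3K4me1 was listed at 71.4%, 70.2%, 69.1%, and 70.6%, and H3K4me3 at 57.7%, 54.4%, 58.2%, and 55.6%. The H3K4me1 share of all regions lay within the members' interval in WT and p300 Knockout and below it in both Tet2-null genotypes. Both marks were more frequent at members in the Tet2-null lists than in the others, although the intervals of WT and Tet2 Knockout overlapped for each mark. Regions present in all 4 H3K27ac lists did not follow that order, with H3K4me1 at 62.1%, 64.6%, 58.7%, and 64.4% and H3K4me3 at 91.2%, 89.5%, 91.9%, and 90.8%. Regions acetylated in Tet2 Knockout only had H3K4me1 at 65.0%, 62.8%, 70.6%, and 65.6% and H3K4me3 at 28.9%, 26.0%, 31.4%, and 27.2%. There both marks were highest in Tet2 Knockout, the genotype whose H3K27ac list chose the regions. Bases covered at the gained regions were also higher in Tet2 Knockout than in WT. H3K4me1 peaks covered 55.4% of the gained sequence in WT and 66% in Tet2 Knockout, and H3K4me3 peaks 55.6% and 63.1%. Over all autosomal regions these were 54.2% and 53.4%, and 64.0% and 64.0%. Regions acetylated in Tet2 Knockout only had 62.3% and 69.9%, and 27.1% and 29.7%. Median peak widths of these lists were 426 bp and 506 bp for H3K4me1, and 847 bp and 785 bp for H3K4me3. The part of peak width in the coverage was not tested.

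At promoters H3K4me3 stayed within a narrow range, and H3K4me1 was highest in p300 Tet2 Knockout with intervals that overlapped between genotypes. H3K4me3 was listed at 79.2% of the 264 promoter members in WT, 77.7% in p300 Knockout, 81.4% in Tet2 Knockout, and 81.1% in p300 Tet2 Knockout. The Tet2 Knockout value was close to the 81.0% of all autosomal promoter regions. H3K4me3 was listed in all 4 genotypes at 198 promoter members, or 75% (69.3% to 80.1%), beside 76.4% of all promoter regions, and in none at 43, or 16.3%, beside 16.6%. These shares were those of acetylated promoters in general. H3K4me1 was listed at 61.4% (55.2% to 67.3%), 61.7% (55.6% to 67.6%), 65.2% (59.1% to 70.9%), and 70.8% (64.9% to 76.2%), where 60.1% of all autosomal promoter regions had it in Tet2 Knockout. Promoter regions that were not members had 63.8%, 64.7%, 60.1%, and 64.1%. H3K4me1 was found in 1 or both Tet2-null genotypes and no other at 25 promoter members, or 9.47% (6.22% to 13.7%). The share was 5.08% of all promoter regions and 6.59% (5.30% to 8.07%) of those acetylated in Tet2 Knockout only. In the opposite direction it was found at 13 members, or 4.92% (2.65% to 8.27%), beside 7.10% and 4.06% (3.06% to 5.28%). For H3K4me3 the members in these 2 directions were 5, or 1.89% (0.618% to 4.36%), beside 1.54% of all promoter regions, and 3, or 1.14% (0.235% to 3.28%), beside 1.58%. The Tet2-null genotypes alone had H3K4me1 at 7 promoter members, or 2.65% (1.07% to 5.39%), against 1.10% of all promoter regions and 3.45% (2.02% to 5.46%) of those acetylated in p300 Tet2 Knockout only, and H3K4me3 at 1, or 0.379% (0.00959% to 2.09%), against 0.376%.

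At distal members H3K4me3 was listed more often in both Tet2-null genotypes than in the others. It was listed at 76 of the 194 distal members in WT and at 76 in p300 Knockout, each 39.2% (32.3% to 46.4%). In Tet2 Knockout it was listed at 98, or 50.5% (43.3% to 57.8%), and in p300 Tet2 Knockout at 108, or 55.7% (48.4% to 62.8%). The interval of WT overlapped that of Tet2 Knockout but not that of p300 Tet2 Knockout. The autosomal distal regions that were not members had shares of 23.7%, 19.1%, 24.7%, and 20.9%, which were lower in both Ep300 Δ/Δ genotypes, and all autosomal distal regions had 25.0% in Tet2 Knockout. Distal members thus carried H3K4me3 more often than these in every genotype, WT included. Distal regions in all 4 H3K27ac lists had higher shares than the members, at 60.0%, 53.9%, 63.2%, and 58.9%. In p300 Tet2 Knockout that share lay within the members' interval. The H3K4me3 lists held 26289 peaks in WT, 25012 in p300 Knockout, 27807 in Tet2 Knockout, and 27268 in p300 Tet2 Knockout.

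**Figure D3:**
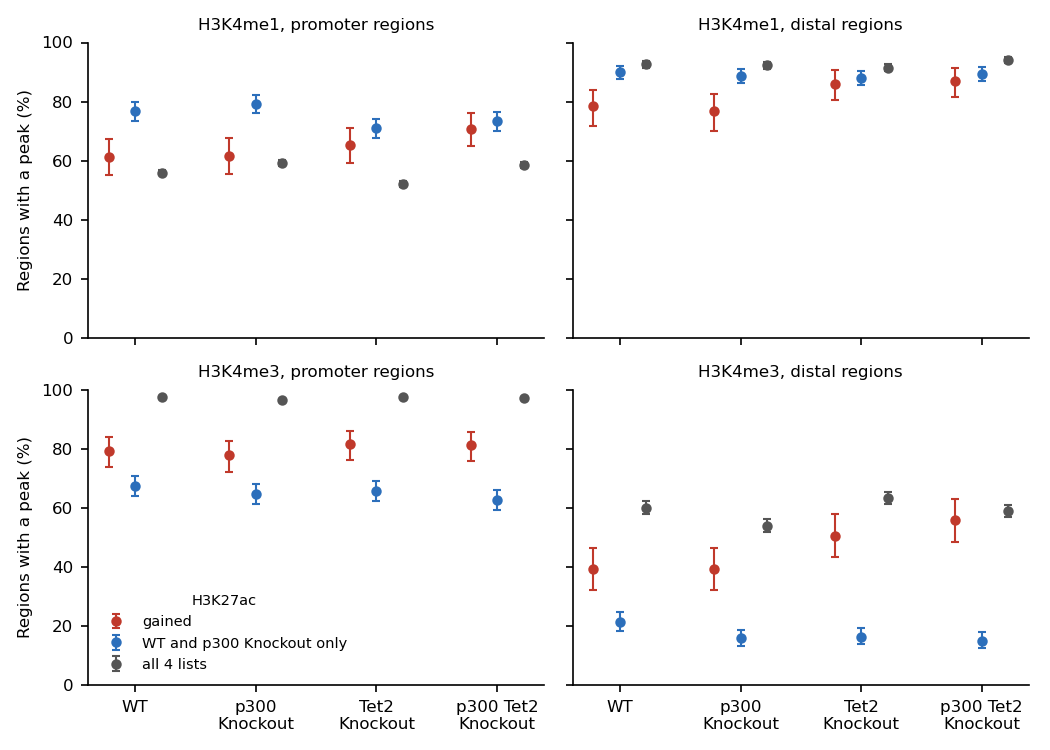
Share of regions with an H3K4me1 or H3K4me3 peak (vertical axis, %) in each genotype, for promoter and distal regions apart. Red, gained regions. Blue, regions acetylated in WT and p300 Knockout only. Gray, regions in all 4 H3K27ac lists. Bars are exact 95% intervals from the number of regions, with 1 library per point. Distal gained regions rise from 39.2% with H3K4me3 in WT to 55.7% in p300 Tet2 Knockout.

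H3K4me3 at distal members was next counted by direction. Peaks of every mark were called over H3, for which 1 sample per genotype is labeled, so that the H3K27ac and H3K4me3 lists of a genotype may share a control and are not independent. The part of the control in these counts was not tested. At 33 of 194, or 17.0% (12% to 23.1%), H3K4me3 was listed in 1 or both Tet2-null genotypes and in neither other, where 4.83% of all autosomal distal regions had it so. The opposite, H3K4me3 in WT or p300 Knockout and no Tet2-null genotype, was found at 3, or 1.55% (0.320% to 4.45%), where the background was 3.51%. Distal regions in all 4 H3K27ac lists had 6.55% in the former direction. The reverse regions had 2.97% (1.85% to 4.50%) in the former direction and 6.93% (5.17% to 9.06%) in the latter. In both Tet2-null genotypes and no other, H3K4me3 was listed at 14 distal members, or 7.22% (4% to 11.8%), where the background was 1.13%. With the H3K4me3 lists held to a -log10 q of 5 or more, an alternative chosen after seeing the data, the share was 4.12% (1.80% to 7.96%), beside 0.690% of all distal regions at that threshold. The regions acetylated in all genotypes but WT then had 4.8% (1.78% to 10.2%, 6 of 125), so that the members no longer had the highest share. With the H3K27ac lists held so, the share was 4.57% (2.11% to 8.50%) beside 1.37% of all distal regions, and the next pattern, WT with p300 Tet2 Knockout, had 3.91% (1.59% to 7.89%). In the lists as deposited, the next of the 15 H3K27ac patterns, WT with p300 Knockout and p300 Tet2 Knockout, had 2.48% (0.808% to 5.68%). Its interval overlapped that of the members, as did those of other small patterns, such as p300 Knockout with p300 Tet2 Knockout at 2.08% (0.253% to 7.32%). In all, the 13873 distal regions that were not members had 1.05% (0.883% to 1.23%). Of the 14 regions, 13 lay 2000 bp or more from H3K27ac of the other lists.

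**Figure D4:**
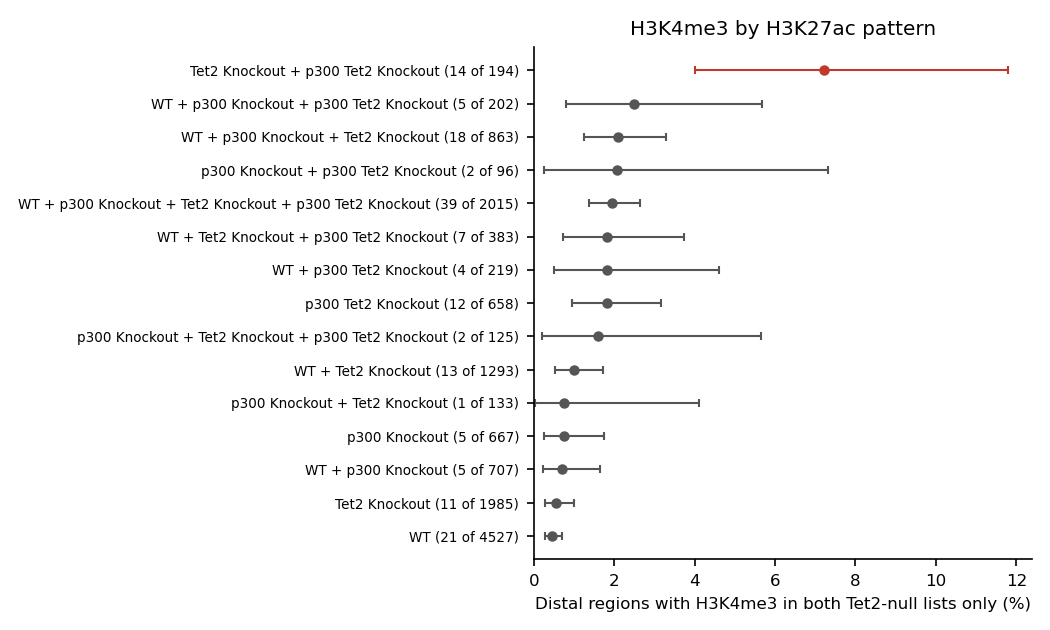
Share of distal regions (horizontal axis, %) whose H3K4me3 peak was listed in Tet2 Knockout and p300 Tet2 Knockout only, for each pattern of H3K27ac presence, with the number of regions in parentheses and exact 95% intervals. The gained pattern (red) stands at 7.22%, and the other 14 patterns lie between 0.464% and 2.48%, all from the lists as deposited.

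These 14 regions lay on 11 chromosomes, 7 in introns, 2 in exons, and 5 between genes, at 3500 to 34098 bp from the nearest start. H3K4me1 was listed in all 4 genotypes at 6 of them. The highest rank belonged to a 309 bp region in an intron of Rbbp8, which encodes the DNA end resection factor CtIP, with H3K27ac folds of 11.8 and 7.79 and no H3K4me1 in any genotype. A region 25667 bp downstream of the nearest start of Car2, the carbonic anhydrase II gene that is active in red cell precursors, had folds of 6.57 and 8.31. H3K4me1, H3K4me3, and H3K27ac were all listed there in Tet2 Knockout and p300 Tet2 Knockout only, and the nearest WT acetylation was 22051 bp away. Slc38a11, an amino acid transporter gene, held a region with H3K4me1 in all 4 genotypes and H3K4me3 in the Tet2-null lists only. In the noncoding 9430014N10Rik, a 988 bp region had no WT acetylation within 360988 bp, and its H3K4me1 was listed in all genotypes but WT. Xpot, a tRNA export factor, had H3K4me1 in all genotypes but p300 Knockout at its region, and an exon of Coro2b, a coronin, had it in Tet2 Knockout only. At Xpot a p300 Knockout H3K27ac peak lay 171 bp away.

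H3K4me1 at distal members was also listed more often in the Tet2-null genotypes, with overlapping intervals of WT and each of them. It was listed at 78.4% (71.9% to 83.9%) in WT, 76.8% (70.2% to 82.5%) in p300 Knockout, 86.1% (80.4% to 90.6%) in Tet2 Knockout, and 87.1% (81.6% to 91.5%) in p300 Tet2 Knockout, and 82.2% of all autosomal distal regions had it in Tet2 Knockout. Distal regions that were not members had 82.6%, 78.2%, 82.2%, and 79.9% in the same order, and all but that of p300 Tet2 Knockout lay within the members' intervals. It was listed in all 4 genotypes at 127 of 194, or 65.5% (58.3% to 72.1%), beside 68.1% of all distal regions, and in none at 13, or 6.70% (3.62% to 11.2%), beside 9.72%. In 1 or both Tet2-null genotypes and no other it was found at 14, or 7.22% (4% to 11.8%), beside a background of 3.41% and 6.45% (5.41% to 7.62%) of distal regions acetylated in Tet2 Knockout only, and in the opposite direction at 2, or 1.03% (0.125% to 3.67%), beside 3.82%. In both Tet2-null genotypes only it was found at 7, or 3.61% (1.46% to 7.29%), beside 1.24%, and regions acetylated in p300 Tet2 Knockout only had 3.8% (2.47% to 5.56%). At distal members with H3K4me1 in all 4 genotypes, the best peak ranked at a median percentile of 63.0 in its WT list, 74.2 in p300 Knockout, 77.9 in Tet2 Knockout, and 82.7 in p300 Tet2 Knockout. The medians for distal regions in all 4 H3K27ac lists were 87.6, 87.3, 86.7, and 90.6. The H3K4me1 lists differed in length, with 107392, 90738, 98069, and 93465 peaks in the same order, so that a percentile stands for its own list and these medians are not compared between genotypes.

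Among members with H3K4me1 in both Tet2-null genotypes only, the highest ranks after 4930481A15Rik and Car2 were those of Mir6368, Kif11, Usp16, and Gm25007. Kif11, a mitotic kinesin, had its region 5810 bp upstream of the start, with H3K4me3 in WT and Tet2 Knockout. Usp16, a histone H2A deubiquitinase, had it 134 bp downstream of the start, 47 bp from a WT H3K27ac peak and with H3K4me3 in all 4 genotypes. The regions nearest to Mir6368 and Gm25007 lay in introns of other genes and had no H3K4me3. At the region nearest to Gm38061, a transcript model of uncertain status 34098 bp away, all 3 marks were listed in both Tet2-null genotypes and none of them in WT or p300 Knockout within 10 kb of the region's center.

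**Figure D5:**
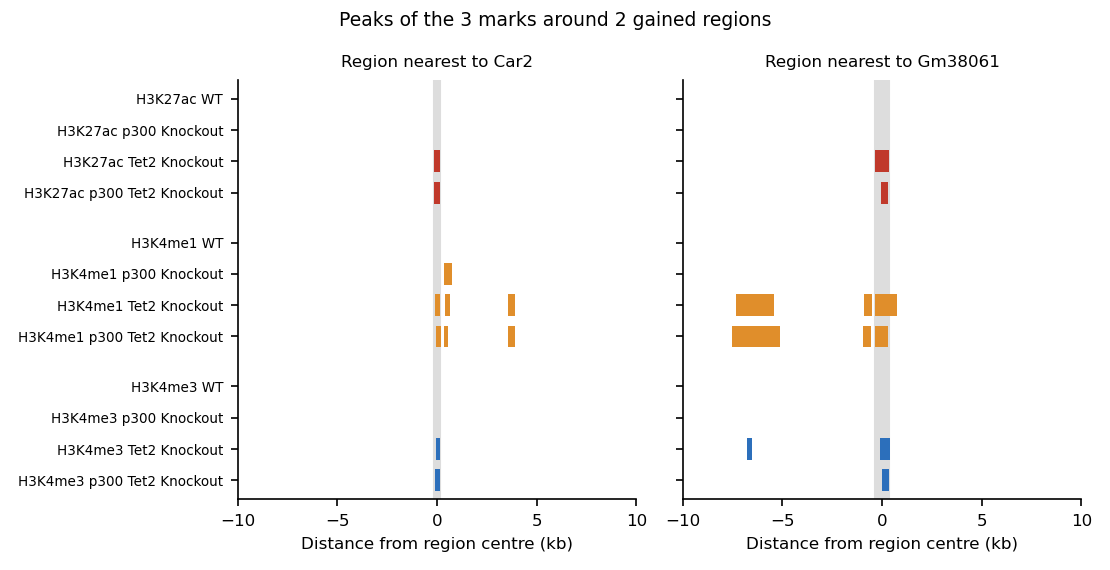
Peaks of H3K27ac (red), H3K4me1 (orange), and H3K4me3 (blue) in the 4 genotypes within 10 kb of the center of the gained regions nearest to Car2 and Gm38061 (horizontal axis, distance in kb), drawn to scale with the region in gray. WT has no peak of any mark in either window, and p300 Knockout has 1 H3K4me1 peak, outside the region near Car2.

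The blood and regulatory gene lists were counted next. Of 20 lists with 394 autosomal genes in all, 15 genes, or 3.81%, were nearest to or overlapped a member, where 1.83% of 20807 autosomal protein-coding genes did so. The lists hold genes chosen for their roles in these cells, so that both shares are given as counts only, and 11 lists had no gene near a member, among them the neutrophil granule, cell cycle, DNA methylation, Hox cluster, and myeloid leukemia genes. The stem and progenitor list had 4 of 25: Gfi1b, a repressor of stem cell and erythroid fate, and Ikzf2 at their promoters, and Meis1 and Prdm16, which sustain stem cells, through overlap of their gene bodies only. The erythroid list had 2 of 18, Bcl11a and Car2. Car2 also had another gained region, 3820 bp upstream of the nearest start, with H3K4me1 in all 4 genotypes. At Gfi1b the region lay 136 bp from a WT peak and had H3K4me1 in all genotypes but WT.

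The other genes came from lists with 1 or 2 genes near a member. Foxo1, a factor of quiescence and B cell development, had its region 209 bp upstream of the start with H3K4me3 in all 4 genotypes. Relb, an NF-kB subunit, and Maff, a small Maf factor, had promoter regions 410 bp and 114 bp from a WT peak. Oasl2, an interferon-stimulated gene, had a promoter region without other acetylation within 13366 bp, and it was weak, at percentiles of 0.320 and 30.2. Ier3, an immediate early gene, and Spred1, an inhibitor of RAS signaling, had distal regions 8074 and 15840 bp upstream of their starts. Ncoa3, a nuclear receptor coactivator, had an intronic region, and Jak1 was overlapped without being the nearest gene. Notch1 had an intronic region 10409 bp from the start at percentiles of 6.19 and 4.42, with H3K4me1 in all 4 genotypes. The H3K27ac peaks listed at Notch1 numbered 6 in WT, 4 in p300 Knockout, 3 in Tet2 Knockout, and 2 in p300 Tet2 Knockout. Ep300, Tet2, Myb, and Dntt had no gained region.

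The sequence under the summits of promoter members held less CpG than promoter regions with a Tet2 Knockout peak as a whole and more than those listed in Tet2 Knockout only. In windows of 100 bp on either side of the summits of the 264 promoter members the median CpG density was 2.99 per 100 bp and the median ratio of observed to expected CpG was 0.458. In the 15015 promoter regions with a Tet2 Knockout peak these were 4.98 and 0.605. A ratio of 0.6 or more was found in 29.2% (23.8% to 35.1%) of promoter members, beside 50.7% (49.9% to 51.5%) of all such promoter regions and 18.9% (16.8% to 21.1%) of those listed in Tet2 Knockout only. Distal members had a median of 1.99 CpG per 100 bp and a ratio of 0.281, beside 1.49 and 0.232 for the 6991 distal regions with a Tet2 Knockout peak. Methylation itself was not measured in these files.

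Short motifs were about as frequent in members as in all regions with a Tet2 Knockout peak. Of 32 shares, 16 motifs at promoter and at distal regions, 2 of the background shares fell outside the members' intervals. GAGGAAGT, the ETS form bound by PU.1, was found on either strand in 5.15% (2.50% to 9.28%) of distal members and in 2.33% of all distal regions. GAAANNGAA, a form bound by interferon regulatory factors, was found in 9.79% (6% to 14.9%) and 5.41%. The intervals were not adjusted for the 32 shares. AGATAAG, bound by GATA factors, was found in 2.06% and 2.45%, TGTGGTT, bound by RUNX, in 5.15% and 5.14%, and CAGCTG, which reads alike on both strands, in 14.9% and 16.3%. None of the letters of 1 motif contains another of the 16, and 259 of the 458 windows held none of them. A match of letters is not a binding site.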

How the data were processed

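The 12 peak lists cover 3 histone marks and 4 genotypes, with 1 library each. The other 8 samples (H3 and H3K27me3) were not analysed here. Per the submitters' processing notes and the methods, the authors used cutadapt 1.15 for adapters, BWA 0.7.13 for alignment (mm10), Picard for duplicates, and MACS2 2.1.1.20160309 for narrow peaks over H3, and kept peaks shared by pseudo-replicates, which are parts of the reads of 1 library. The labels describe the libraries as single-end and the methods as paired-end. The deposited lists give a fold enrichment over H3, the −log10 of the p-value and q-value, and a score. The authors state a q threshold of 0.05, but 143 to 1630 peaks of each H3K27ac list carry a larger q. The score and −log10 p were not used. Depth and spike-in scaling are not in the lists, and a peak just under threshold in 1 list counts as absent there, so presence moves with the yield of a library.

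Lists were merged at 1 bp overlap on the 19 autosomes. Each region was given the nearest transcript start of GENCODE release 21 (GRCm38, the same assembly as mm10). Percentiles rank a peak by fold within its own list. Sequences came from the RefSeq GRCm38 assembly. Python 3.11.15, pandas 2.3.3, scipy 1.17.1, and pysam 0.24.0 were used. Overlap code was tested on simulated data against bedtools 2.31.1, and 10 of 10 member counts were equal.

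The members, gene lists, motifs, and tests were chosen with earlier results of these data known. Named genes were the 12 members with the highest lower percentile of the 2 Tet2-null lists, genes nearest to 3 or more members (there were 0), the 6 highest members with H3K4me1 and the 6 with H3K4me3 in the Tet2-null lists only, genes of the lists, and Ep300, Tet2, Myb, Notch1, and Dntt. Genes named at the edge of the rule, as neighbors, for the printed sequences (Gm38061), and among the newly listed promoters were chosen after their values were seen. Alternatives changed the overlap, the threshold, list length, chromosomes, promoter window, and gene assignment. The result for 1 cell marker is not reported here.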

Additional observations from a re-analysis of the deposited data

How the results depend on the processing

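Of 59 recomputed values, 41 stayed within 1.5 times the reported count or within the reported interval, and 18 did not. One alternative, that the Tet2-null peaks overlap each other, returned the same 458 regions by construction. Its values are among the 41 although they could not move. The alternatives for the distal H3K4me3 share and for the reverse regions were chosen after seeing the data. With a WT or p300 Knockout peak within 500 bp counted as present, the promoter share was 48.2%. With 2000 bp, 283 regions were left, with 45.6% at promoters and H3K4me3 in Tet2 Knockout at 62.9%. With all lists at a −log10 q of 5 or more, H3K4me1 in Tet2 Knockout was 69.7%, H3K4me3 in Tet2 Knockout was 78.9%, and the reverse regions fell to 424. With lists of equal length, H3K4me3 in Tet2 Knockout was 73.1% and the reverse regions numbered 722. With only the upper part of both Tet2-null lists by fold, 21 regions were left, 90.5% at promoters, with H3K4me1 at 33.3% in WT and 38.1% in Tet2 Knockout, H3K4me3 at 81.0% in Tet2 Knockout, and 1 of 2 distal regions (50%) with H3K4me3 in the Tet2-null genotypes only. A promoter window of 1000 bp gave 46.9% at promoters, and protein-coding starts only gave 39.5%. With 200 bp of overlap required, H3K4me1 in WT was 61.6%. Apart from the 2 regions left by the fold limit, the share of distal members with H3K4me3 in the Tet2-null genotypes only ran from 4.12% (H3K4me3 lists at a −log10 q of 5 or more) to 8.44%. At the former threshold the regions acetylated in all genotypes but WT had a higher share, 4.8%. Stricter lists keep fewer of the same regions, and the cause of the other differences was not tested. No paired analysis was possible because each group holds 1 library, and for the same reason the spread between replicates is unknown. Presence in a list cannot separate a lost mark from one just under the threshold.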
